A study of Mus musculus with 40 samples.

Results

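The solute carrier genes for sugars, amino acids and carboxylates were followed in mouse kidney across 7 doses of TCDD (2,3,7,8-tetrachlorodibenzo-p-dioxin), a stable dioxin that binds the aryl hydrocarbon receptor (AhR). Members were set by a rule on gene names, which was chosen with earlier results of these data known. The rule took every protein-coding gene whose symbol begins with Slc1a, Slc2a, Slc3a, Slc5a, Slc6a, Slc7a, Slc13a, Slc16a, Slc36a, Slc38a or Slc43a and a number, leaving out Slc7a11. This gave 107 of the 55359 gene identifiers in the count files. One of them, Slc7a6os, is a gene opposite Slc7a6 and no carrier, so 106 are carriers. Right kidneys came from male C57BL/6 mice that began treatment at 30 days of age and were 58 days old at the end. The vehicle group received sesame oil by oral gavage, and the other groups received TCDD in that oil at 0.03, 0.1, 0.3, 1, 3, 10 or 30 µg/kg, with 1 dose every 4 days over 28 days. There were 8 groups of 5 mice, 1 library of bulk RNA a mouse and 40 libraries in all. The labels give no transgene or deletion. RNA came from a piece of kidney extracted whole, so each value is a sum over all its cell types.

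Carriers of these families take back filtered glucose, amino acids, lactate, citrate and sulfate along the proximal tubule. The brush border holds sodium- or proton-driven carriers, and the basolateral membrane holds exchangers and facilitative carriers that pass the solutes on to blood. Place along the tubule matters: a high-capacity set works in the early convoluted part (segments S1 and S2), and a high-affinity set in the late straight part (S3) collects what is left. Some carriers need a partner subunit to reach the membrane, as Slc7a9 and Slc7a13 do with Slc3a1, and Slc7a7 and Slc7a8 with Slc3a2.

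Gene counts per library ran from 15278423 to 25575317, so 1 CPM (a count of 1 per 1000000 counts of the library) stood for 15.3 to 25.6 counts. A filter on low counts kept 90 of the 107 members. The other 17 reached at most 31 counts in any library, and 3 of them had 0 counts in all 40. Proximal tubule markers were abundant in every library, with a summed 12770 to 19900 CPM at 30 µg/kg and 18210 to 22320 CPM in vehicle over 6 genes. Vehicle replicates 1 and 2 stood apart from vehicle replicates 3 to 5. The 5 late proximal (S3) markers summed to 1483 and 1588 CPM in those 2 libraries and to 2515 to 3119 CPM in the other 3, while the 4 early markers summed to 4573 and 4651 CPM against 3011 to 3198 CPM. Carriers differed likewise: Slc7a13 measured 302 and 349.8 CPM in replicates 1 and 2 against 726 to 778 CPM in the others, and Slc6a19 measured 487 and 469 against 242 to 344 CPM. Counts of calls against vehicle are therefore also given without these 2 libraries, as are the values of carriers named below whose call changes. Adrenal cortex markers, over 3 genes, reached a summed 393.8 CPM in 1 library at 0.03 µg/kg and 431.4 CPM in 1 at 1 µg/kg, and at most 19.9 CPM elsewhere.

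Per kilobase of exon in vehicle, abundant members were Slc7a13, the S3 partner of Slc3a1 in cystine and acidic amino acid uptake, with a mean of 270.0 CPM per kb, Slc3a1 itself (186), the early glucose carrier Slc5a2 (167), the glycine and neutral amino acid carrier Slc6a18 (154) and the dicarboxylate carrier Slc13a3 (139 CPM per kb). Their order differed between vehicle libraries: in replicates 1 and 2 Slc7a13 was at 141 and 163 CPM per kb and Slc5a2 at 212 and 210.2, while in replicates 3 to 5 Slc7a13 was at 339 to 363 and Slc5a2 at 134 to 140.0. Exons of genes on the other strand overlap 26.5% of those of Slc3a1 and 20.6% of those of Slc5a2, so no rank is given. Slc2a6 and Slc16a3, the members called at the lowest dose with any call, lay far lower, both at 0.141 CPM per kb. The summed level of the members was 9113 to 9912 CPM in vehicle and 8801 to 12280 CPM at 30 µg/kg, so the groups overlapped in the total while single carriers moved in both directions.

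Promoter windows of 3 members are shown because these genes passed the test at 3 µg/kg (Slc2a6 and Slc16a3) or fell among the late proximal carriers (Slc5a8). Windows are from RefSeq on GRCm38.p6 and run from 250 bases before to 50 bases after an annotated start, on the gene's strand. Capitals mark GCGTG, the core of the dioxin response element, or its reverse complement CACGC. The same GCGTG letters are also one form of the hypoxia response element. Slc2a6 lies on the minus strand at chr2:27027949-27028248, Slc16a3 on the plus strand at chr11:120948817-120949116 and Slc5a8 on the plus strand at chr10:88885742-88886041.
Slc2a6: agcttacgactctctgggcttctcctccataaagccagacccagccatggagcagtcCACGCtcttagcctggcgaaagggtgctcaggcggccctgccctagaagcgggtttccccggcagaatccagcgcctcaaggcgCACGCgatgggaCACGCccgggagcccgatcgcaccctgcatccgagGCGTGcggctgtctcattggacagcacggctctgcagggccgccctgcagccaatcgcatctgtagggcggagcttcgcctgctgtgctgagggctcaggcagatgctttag
Slc16a3: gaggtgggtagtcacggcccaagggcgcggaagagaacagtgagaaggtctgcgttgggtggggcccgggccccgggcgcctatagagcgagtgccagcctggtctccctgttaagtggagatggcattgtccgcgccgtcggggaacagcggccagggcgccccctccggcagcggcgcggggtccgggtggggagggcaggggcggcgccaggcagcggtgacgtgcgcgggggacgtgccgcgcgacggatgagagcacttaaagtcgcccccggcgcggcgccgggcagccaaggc
Slc5a8: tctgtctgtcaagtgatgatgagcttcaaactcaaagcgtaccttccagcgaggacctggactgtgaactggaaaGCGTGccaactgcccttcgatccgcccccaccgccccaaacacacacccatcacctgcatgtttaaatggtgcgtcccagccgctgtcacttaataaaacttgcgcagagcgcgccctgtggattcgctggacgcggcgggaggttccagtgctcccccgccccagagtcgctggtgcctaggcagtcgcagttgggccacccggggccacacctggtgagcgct
The Slc2a6 window held 4 matches, the Slc5a8 window 1 and the Slc16a3 window 0. Of 32851 mouse windows of 300 bases, 32.4% held at least 1 match and 1.33% at least 4. Windows were found for 78 members, of which 32 held a match. Among the 27 members called at 30 µg/kg, 17 had a window and 9 of these held a match (52.9%), beside 35.2% of all gene symbols in the table. A match is a string of letters and not a measured binding site. Slc38a3, Slc43a3, Slc7a12 and Slc7a13 are not shown.

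At 30 µg/kg, 27 of the 90 members tested differed from vehicle (30.0%), where 15.9% of all 17345 genes tested did. Called here and below means an edgeR quasi-likelihood Benjamini-Hochberg adjusted p under 0.05. Of the 27, 15 were higher and 12 lower, which is 16.7% and 13.3% of the members beside 8.39% and 7.55% of all genes. The median log2 fold change was 0.10 over the members tested and 0.01 over all genes. With library sizes alone in place of TMM scaling the split was 20 higher and 9 lower, beside 10.2% and 5.44% of all genes, so that 69.0% rather than 55.6% of the member calls and 65.3% rather than 52.6% of all calls were higher. After vehicle replicates 1 and 2 were left out, 30 of 93 members tested were called (17 higher and 13 lower, where 12.6% of all genes were called, 6.38% higher and 6.20% lower), 24 of them also called with all 5. Slc16a3, Slc5a2 and Slc6a20a were no longer called, and Slc13a2, Slc13a3, Slc16a1, Slc43a2, Slc6a18 and Slc6a8 were called in addition. A fit to the 10 libraries of the 2 groups alone called 7 of 87 members (8.05%), where 6.28% of all genes tested in that fit were called.

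**Figure D1:**
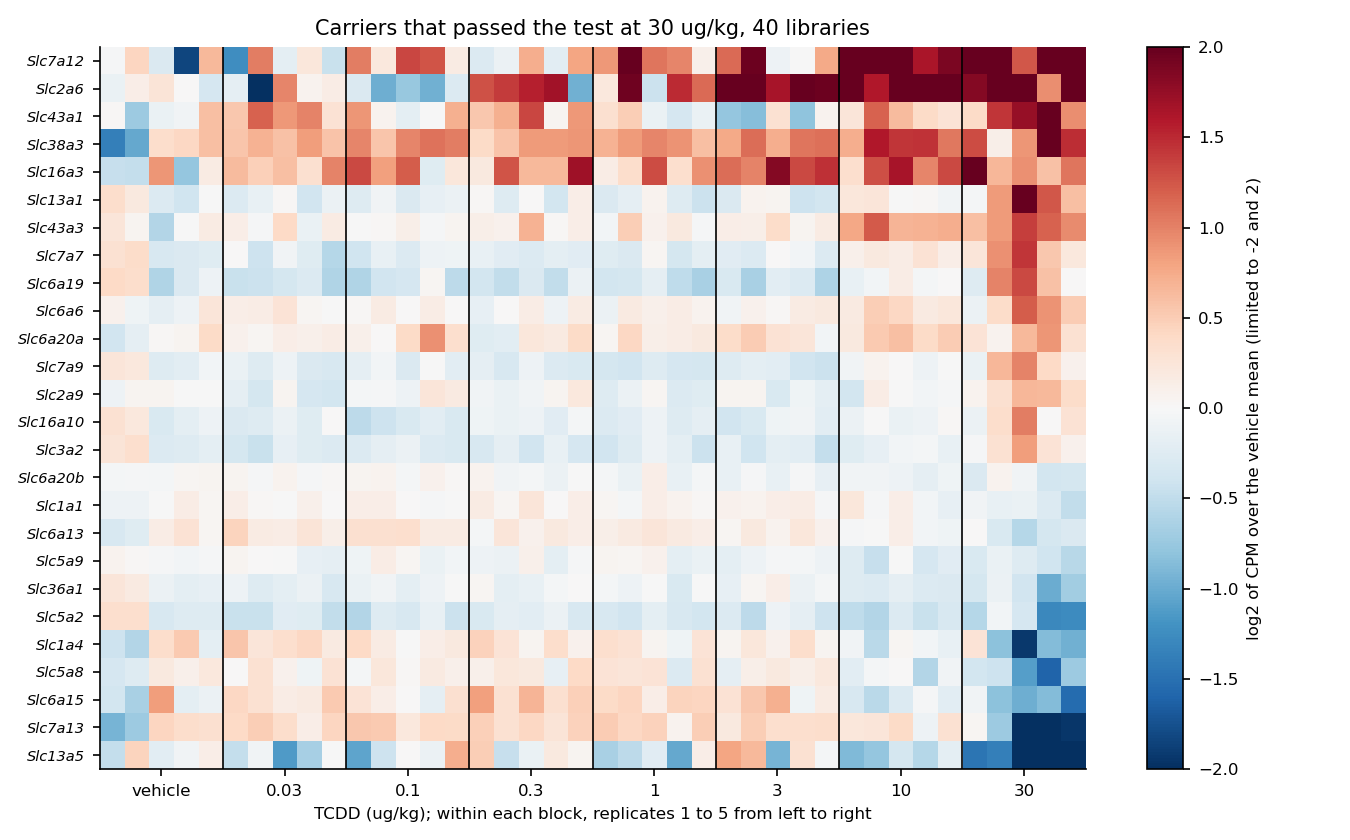
Levels of 26 carriers called at 30 µg/kg in all 40 libraries, as the log2 of CPM over the vehicle mean with 0.1 CPM added, from low (blue) to high (red), limited to -2 and 2. Rows are ordered by the change at 30 µg/kg. Within the vehicle block, replicates 1 and 2 are lower than the others for Slc7a13 and Slc38a3 and higher for Slc6a19 and Slc5a2, and the 30 µg/kg block is uneven, with replicate 3 the most marked for Slc7a13, Slc13a1 and Slc7a7.

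Of the 6 early proximal carriers, 2 rose at 30 µg/kg (Slc6a19 and Slc7a7), 1 fell (Slc5a2) and 3 did not pass the test, with a median log2 fold change of 0.32. Beside this and the other lists by place below, 8.39% of all genes were called higher and 7.55% lower. Against vehicle replicates 3 to 5 the same 2 rose, 0 fell, and the median was 0.61. Slc5a2, which takes up most filtered glucose, measured 615, 609, 389, 405 and 406 CPM in vehicle replicates 1 to 5 and 325, 468, 382, 197 and 203 CPM at 30 µg/kg. The groups overlapped through replicate 2 at 30 µg/kg, and the highest vehicle values were those of replicates 1 and 2. Its log2 fold change was -0.62 ± 0.16 (SE; adjusted p by edgeR = 0.00548), and -0.35 ± 0.16 (adjusted p = 0.179) without those 2 vehicle libraries, so the call rests on them. Exons of BC017158 on the other strand cover 20.6% of the Slc5a2 exons. The counts do not tell the strands apart, and ambiguous reads were left out, so the Slc5a2 level can be too low.

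Slc6a19, the main brush border carrier of neutral amino acids, measured 487, 469, 242, 300.2 and 344 CPM in the vehicle libraries and 309, 731, 917, 552 and 369 CPM at 30 µg/kg. Replicates 2, 3 and 4 at 30 µg/kg lay above every vehicle library, and replicates 1 and 5 lay among them. The log2 fold change was 0.64 ± 0.20 (adjusted p by edgeR = 0.0225) and 0.96 ± 0.22 (adjusted p = 0.00288) against vehicle replicates 3 to 5. Leaving out replicate 2 or 3 at 30 µg/kg or vehicle replicate 3 or 4 ended the call, with adjusted p of 0.0694, 0.155 (log2 0.41), 0.0878 and 0.0687. Slc7a7, the basolateral light chain that exports basic amino acids with Slc3a2, measured 178, 187, 116, 119 and 122 CPM in the vehicle libraries and 171, 271, 391, 209 and 168 CPM at 30 µg/kg. Replicates 2, 3 and 4 at 30 µg/kg were again above all vehicle libraries, and replicates 1 and 5 exceeded vehicle replicates 3 to 5 only. Slc7a7 rose by 0.74 ± 0.16 on the log2 scale (adjusted p by edgeR = 0.001) and its heavy chain Slc3a2 by 0.33 ± 0.11 (adjusted p = 0.0373).

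The other early carriers did not pass the test. The basolateral glucose carrier Slc2a2 was at 208 ± 42.4 CPM (SD, n = 5) in vehicle and 247 ± 92.7 at 30 µg/kg (log2 0.25 ± 0.15, adjusted p by edgeR = 0.284). Slc5a12, a low-affinity lactate carrier, was at 261 ± 83.6 and 341 ± 154 CPM (log2 0.39 ± 0.23, adjusted p = 0.296). Against vehicle replicates 3 to 5 the log2 fold changes were 0.47 for Slc2a2 and 0.75 for Slc5a12, just short of a call (adjusted p by edgeR = 0.0552 and 0.0559). Slc7a8, a basolateral neutral amino acid exchanger, had log2 fold changes of -0.07 ± 0.14 against all vehicle libraries and 0.27 ± 0.14 against replicates 3 to 5, with adjusted p of 0.832 and 0.22. Its sign thus turned with the choice of vehicle libraries.

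Of the 6 late proximal carriers, 1 rose at 30 µg/kg (Slc7a12) and 2 fell (Slc7a13 and Slc5a8), with a median log2 fold change of -0.22. Against vehicle replicates 3 to 5, Slc6a18 fell as well and the median was -0.41. Slc7a13 measured 302, 349.8, 778, 734 and 726 CPM in the vehicle libraries and 591, 348, 18.8, 71.4 and 149 CPM at 30 µg/kg. Replicates 3, 4 and 5 at 30 µg/kg lay below every other library of both groups, replicate 2 lay beside vehicle replicates 1 and 2, and replicate 1 lay between the vehicle subsets. The log2 fold change was -1.29 ± 0.42 (adjusted p by edgeR = 0.0305) and -1.66 ± 0.45 (adjusted p = 0.0119) against vehicle replicates 3 to 5. The call was lost without replicate 4 or 5 at 30 µg/kg (adjusted p = 0.101 and 0.0842) or vehicle replicate 3, 4 or 5 (0.0815, 0.071 and 0.0635), and the fall was by 1.98 (adjusted p = 0.000409) without replicate 1 at 30 µg/kg. In bulk RNA, fewer late proximal cells and less RNA per cell cannot be told apart. The late markers Cyp7b1, Acsm3, Atp11a and Slco1a6 also fell and Slc22a7 did not pass the test, so that 4 of 5 fell, with a summed 419.2 to 2100 CPM at 30 µg/kg against 1483 to 3119 CPM in vehicle. Of the 4 early markers, Slc22a6 fell (log2 -0.81, adjusted p by edgeR = 4.63e-05) and 0 rose. Against vehicle replicates 3 to 5 Slc22a6 fell again, and Gatm and Spp2 rose. Of the 6 general proximal markers, Slc34a1, Hnf4a and Miox fell and Cubn rose. The part of late proximal cells in the carrier values was not tested.

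Slc5a8, a high-affinity carrier of lactate and other monocarboxylates, measured 199, 211, 289, 272 and 291 CPM in the vehicle libraries and 195, 189.6, 118, 83.5 and 153 CPM at 30 µg/kg. All 5 libraries at 30 µg/kg lay below all 5 of vehicle, although replicate 1 at 30 µg/kg and vehicle replicate 1 were close. Its log2 fold change was -0.77 ± 0.16 (adjusted p by edgeR = 0.000794). Slc7a12, a carrier of small neutral amino acids, went the other way, from 5.30, 7.34, 4.41, 1.45 and 8.50 CPM in the vehicle libraries to 49.1, 31.4, 12.9, 29.7 and 40.5 CPM at 30 µg/kg. The groups did not overlap, and replicate 3, lowest for Slc7a13 and highest for Slc13a1, was also the lowest for Slc7a12. Slc7a12 rose by 2.59 ± 0.45 on the log2 scale (adjusted p by edgeR = 8.65e-05), the largest rise among the members called.

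The remaining late carriers did not pass the test against all 5 vehicle libraries. Slc6a18 was at 682 ± 188 CPM (SD, n = 5) in the vehicle group and 550.4 ± 135 CPM at 30 µg/kg, with a log2 fold change of -0.31 ± 0.14 (adjusted p by edgeR = 0.124) that became -0.58 ± 0.12 (adjusted p = 0.000416) without vehicle replicates 1 and 2. It was also called without vehicle replicate 1, vehicle replicate 2 or replicate 1 at 30 µg/kg singly, with adjusted p of 0.0323, 0.0208 and 0.0463. The high-affinity glucose carrier Slc5a1 (0.10 ± 0.09, adjusted p = 0.536) and the cystine carrier heavy chain Slc3a1 (-0.12 ± 0.10, adjusted p = 0.481) did not pass the test. Exons of Prepl on the other strand cover 26.5% of those of Slc3a1.

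**Figure D2:**
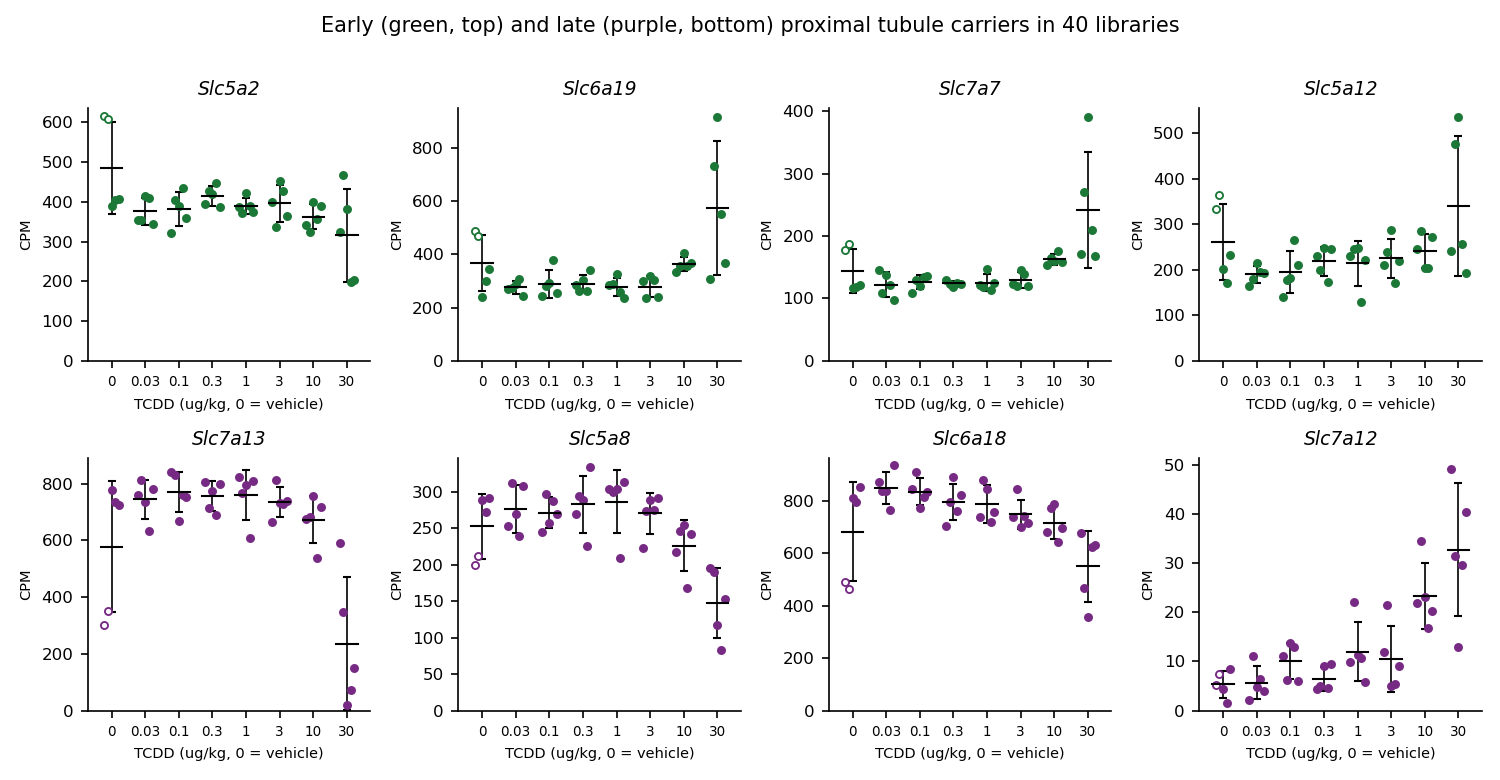
CPM of 4 early (green, top) and 4 late (purple, bottom) proximal tubule carriers in each of 40 libraries by TCDD dose in µg/kg. Points are libraries, open points are vehicle replicates 1 and 2, and lines are the group mean and SD (n = 5). Slc7a13 runs from 18.8 to 591 CPM at 30 µg/kg, and the open vehicle points at 302 and 350 CPM lie below the other vehicle points; Slc7a12 points at 30 µg/kg all lie above vehicle.

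Ratios of paired carriers within a library do not depend on its total. Of 4 ratios, 3 set a late over an early proximal carrier, and that of Slc3a1 to Slc7a9 sets the heavy chain over a light chain listed without a fixed segment. At 30 µg/kg against vehicle the log2 ratio of Slc5a8 to Slc5a12 was -1.16 ± 0.82 against -0.01 ± 0.70 (SD, n = 5 each), that of Slc6a18 to Slc6a19 0.01 ± 1.03 against 0.89 ± 0.83, and that of Slc3a1 to Slc7a9 1.06 ± 0.28 against 1.59 ± 0.40. That of Slc5a1 to Slc5a2 was -1.73 ± 0.47 against -2.49 ± 0.44. The differences of -1.15, -0.88, -0.54 and 0.76 had two-sided exact permutation p-values of 0.0476, 0.175, 0.0476 and 0.0397, where 5 against 5 libraries cannot give less than 0.00794. Adjusted over the 4 ratios they were 0.0635, 0.175, 0.0635 and 0.0635, so none passed. Without vehicle replicates 1 and 2 the differences became -1.66, -1.47, -0.81 and 0.45, with exact permutation p-values of 0.0357, 0.0536, 0.0179 and 0.196. Adjusted, these were 0.0714, 0.0714, 0.0714 and 0.196, and 5 against 3 libraries cannot give less than 0.0179. With the sense column the vehicle mean was 2.28 for Slc3a1 to Slc7a9 and -3.16 for Slc5a1 to Slc5a2, and the differences were -0.55 and 0.73.

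**Figure D3:**
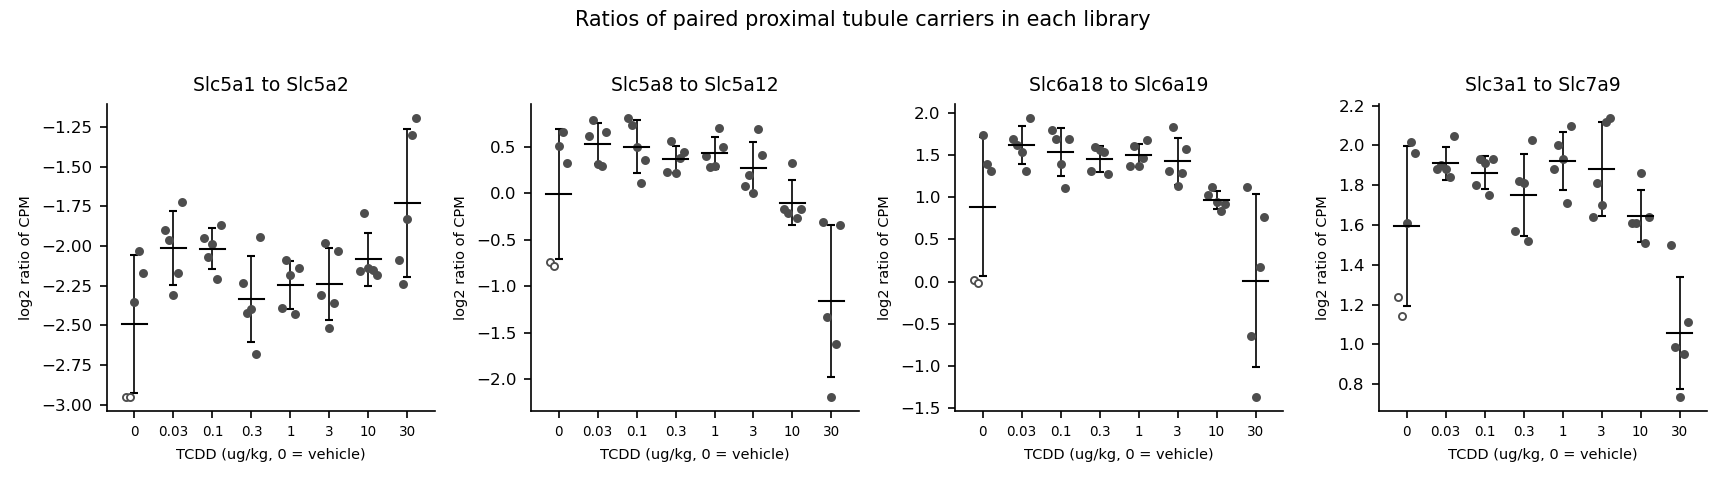
Log2 ratio of the first over the second carrier of 4 pairs in each library, by TCDD dose in µg/kg, with the group mean and SD (n = 5). Open points are vehicle replicates 1 and 2. Replicate 3 at 30 µg/kg has the lowest ratio in 3 of the 4 panels, and the open vehicle points lie below the other vehicle points in all 4.

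Of the 8 proximal carriers without a fixed segment, 4 rose (Slc38a3, Slc13a1, Slc7a9 and Slc16a10) and 2 fell (Slc6a13 and Slc1a1), with a median log2 fold change of 0.28. Against vehicle replicates 3 to 5, 5 rose and 3 fell, with a median of 0.44. Slc13a1, the sodium-driven sulfate carrier, measured 404, 367, 263, 241 and 318 CPM in the vehicle libraries and 311, 573, 1368, 751 and 485 CPM at 30 µg/kg. Replicates 2 to 5 at 30 µg/kg lay above every vehicle library, replicate 3 by far the highest, and replicate 1 lay within vehicle. It rose by 1.13 ± 0.22 (adjusted p by edgeR = 0.000347), and by 0.73 without replicate 3 at 30 µg/kg (adjusted p = 0.00243). Slc38a3, which moves glutamine and histidine across the basolateral membrane, measured 8.30, 10.5, 27.4, 28.7 and 32.8 CPM in the vehicle libraries and 53.2, 23.4, 39.9, 109.6 and 60.0 CPM at 30 µg/kg. Replicates 1, 3, 4 and 5 at 30 µg/kg were above all vehicle libraries, and replicate 2 lay between the low vehicle replicates 1 and 2 and the other 3. The log2 fold change of 1.41 ± 0.29 (adjusted p by edgeR = 0.000737) was 0.94 ± 0.27 (adjusted p = 0.0162) without those vehicle libraries.

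Slc7a9, the light chain of the cystine carrier, measured 165, 161.38, 117, 121 and 134 CPM in the vehicle libraries and 127, 221, 279, 185 and 148 CPM at 30 µg/kg, with replicates 2, 3 and 4 above all vehicle libraries (log2 0.46 ± 0.12, adjusted p by edgeR = 0.00484, and 0.28, adjusted p = 0.0489, without replicate 3). Slc16a10, an exporter of aromatic amino acids, measured 100.5, 93.9, 65.4, 71.2 and 75.4 and 75.0, 103, 165, 81.9 and 99.8 CPM, where only replicates 2 and 3 at 30 µg/kg exceeded every vehicle library. Its log2 fold change of 0.37 ± 0.12 (adjusted p by edgeR = 0.0353) was 0.14 (adjusted p = 0.365) without replicate 3 at 30 µg/kg, and the call was also lost without vehicle replicate 3, 4 or 5 (0.129, 0.102 and 0.0793).

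Slc6a13, a carrier of gamma-aminobutyrate and taurine, measured 114, 120.3, 158, 173 and 146 CPM in the vehicle libraries and 143, 116, 95.5, 112 and 117 CPM at 30 µg/kg. Replicates 3 and 4 at 30 µg/kg lay below all vehicle libraries, and the rest lay within vehicle, whose own low values were replicates 1 and 2. The log2 fold change was -0.29 ± 0.09 (adjusted p by edgeR = 0.0159), lost without replicate 3 at 30 µg/kg or vehicle replicate 3 or 4 (adjusted p = 0.0678, 0.0659 and 0.107), and -0.45 ± 0.09 (adjusted p = 0.000195) against vehicle replicates 3 to 5. Slc1a1, the glutamate and aspartate carrier, measured 196, 197, 210.1, 234 and 217 and 202, 191, 192, 175 and 151 CPM, with 4 of 5 libraries at 30 µg/kg below all of vehicle. Its log2 fold change was -0.21 ± 0.07 (adjusted p by edgeR = 0.0311), and leaving out replicate 4 or 5 at 30 µg/kg or vehicle replicate 3, 4 or 5 ended the call (0.0784, 0.153, 0.0523, 0.12 and 0.0616). A gene on the other strand covers 31.9% of the Slc1a1 exons. The dicarboxylate carriers of the brush border, Slc13a2, and of the basolateral membrane, Slc13a3, had log2 fold changes of -0.36 ± 0.14 (adjusted p = 0.0676) and 0.20 ± 0.09 (adjusted p = 0.119). Against vehicle replicates 3 to 5 they were -0.57 ± 0.14 and 0.32 ± 0.10, with adjusted p of 0.00348 and 0.0206. Leaving out 1 library also brought calls, of Slc13a2 without vehicle replicate 1 or 2 or replicate 1 at 30 µg/kg (0.0152, 0.0397 and 0.0177) and of Slc13a3 without replicate 5 at 30 µg/kg (0.0466). Exons of Slc13a2os on the other strand cover 26.2% of those of Slc13a2.

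**Figure D4:**
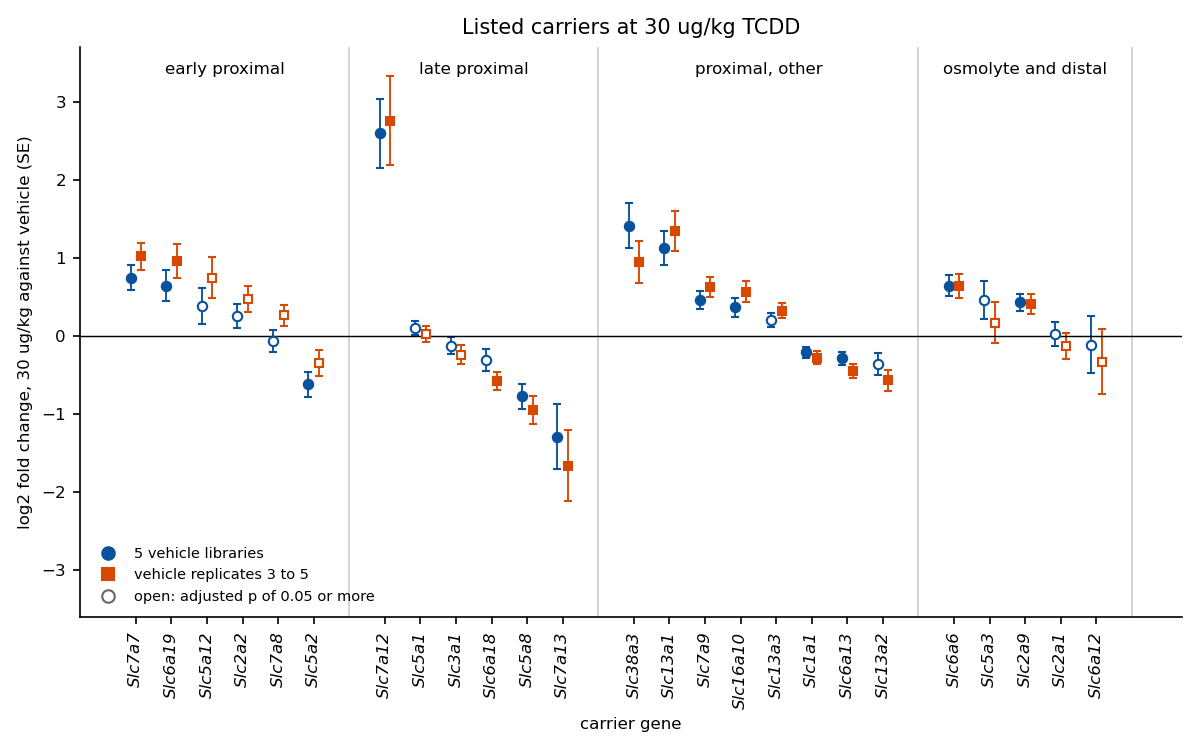
Log2 fold change (y axis, ± SE) at 30 µg/kg against vehicle for 25 carriers grouped by place along the nephron. Blue circles use all 5 vehicle libraries and orange squares vehicle replicates 3 to 5, and open symbols did not pass the test. Slc7a12 is highest and Slc7a13 lowest, both within the late proximal group, and Slc5a2 and Slc7a13 show how the estimate shifts with the vehicle libraries used.

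Among 5 carriers of osmolytes and of the distal nephron, 2 rose and 3 did not pass the test, with a median log2 fold change of 0.43. Against vehicle replicates 3 to 5 the same 2 rose, and the median was 0.17. Slc6a6, the taurine carrier, measured 381, 335, 315, 334 and 422 CPM in the vehicle libraries and 329, 459, 823, 669.8 and 508 CPM at 30 µg/kg. Replicates 2 to 5 at 30 µg/kg exceeded all vehicle libraries and replicate 1 did not. Slc6a6 rose by 0.64 ± 0.13 (adjusted p by edgeR = 0.000555). Slc2a9, a carrier of urate, measured 17.9, 20.1, 20.1, 19.2 and 19.3 and 20.2, 24.2, 30.8, 30.3 and 25.1 CPM, with all 5 libraries at 30 µg/kg above vehicle (log2 0.43 ± 0.11, adjusted p by edgeR = 0.00384, and 0.36, adjusted p = 0.066, with the sense column). The inositol carrier Slc5a3 (0.45 ± 0.24, adjusted p = 0.226), the betaine carrier Slc6a12 (-0.12 ± 0.37, adjusted p = 0.887) and the basolateral glucose carrier Slc2a1 (0.02 ± 0.15, adjusted p = 0.955) did not pass. The sign of Slc6a12 and of Slc2a1 turned when single libraries were left out.

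The 65 members tested in no segment list held 13 of the 27 calls, 6 higher and 7 lower. Of all genes tested, 15.9% were called, 8.39% higher and 7.55% lower. The rest of the member calls fell among the 25 carriers listed by place, a list chosen with earlier results of these data known. Slc43a1, a carrier of branched-chain amino acids, measured 1.27, 0.709, 1.12, 1.18 and 1.93 CPM in the vehicle libraries and 1.65, 3.51, 4.41, 5.95 and 2.44 CPM at 30 µg/kg, with replicates 2 to 5 above all vehicle libraries (log2 1.53 ± 0.33, adjusted p by edgeR = 0.000676). Of 3 podocyte markers 2 rose as well, Podxl among them, with a sum of 310.3 to 422.3 CPM at 30 µg/kg against 216.9 to 296.6 CPM in vehicle. Endothelial markers summed to 249.9 to 300.5 against 180.2 to 206.8 CPM over 3 genes, of which Pecam1 and Emcn rose. The part of these cells in the carrier values was not tested.

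Slc13a5, the citrate carrier, fell the furthest, from 1.56, 3.04, 1.90, 2.10 and 2.44 CPM in the vehicle libraries to 0.738, 0.792, 0, 0.168 and 0 CPM at 30 µg/kg. No library at 30 µg/kg reached the lowest vehicle library, and 2 had no count. Its log2 fold change was -2.71 ± 0.49 (adjusted p by edgeR = 6.55e-05). Slc6a15, a carrier of branched-chain amino acids and proline best known from brain, measured 30.0, 24.6, 68.8, 33.8 and 35.8 and 36.6, 21.7, 19.6, 21.0 and 13.2 CPM, where replicate 1 at 30 µg/kg lay within vehicle and the other 4 lay below it. The change was -0.79 ± 0.21 (adjusted p by edgeR = 0.00858) and -0.47 (adjusted p = 0.0892) without vehicle replicate 3. Slc1a4, an exchanger of alanine, serine and cysteine, measured 23.0, 20.4, 39.1, 44.1 and 26.7 and 37.1, 17.2, 7.93, 16.8 and 15.8 CPM, again with replicates 2 to 5 below vehicle and replicate 1 within it (log2 -0.69 ± 0.22, adjusted p by edgeR = 0.0298). This call was lost without any 1 of replicates 2 to 5 at 30 µg/kg (adjusted p = 0.0582, 0.0849, 0.08 and 0.082) or vehicle replicate 3 or 4 (0.103 and 0.127), and without replicate 1 at 30 µg/kg the value was -1.08 (adjusted p = 3.43e-05).

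Smaller falls were called for Slc36a1 and Slc5a9. Slc36a1, a proton-coupled amino acid carrier of lysosomes, measured 214, 204, 167, 158 and 160.96 CPM in the vehicle libraries and 141, 167, 138, 90.8 and 112 CPM at 30 µg/kg, with 4 of 5 below all of vehicle (log2 -0.48 ± 0.10, adjusted p by edgeR = 0.000299). For Slc5a9, a carrier of mannose and other hexoses, the values were 49.4, 48.0, 46.6, 45.2 and 46.4 and 38.1, 42.8, 39.3, 35.8 and 32.2 CPM, with no overlap (log2 -0.33 ± 0.08, adjusted p = 0.00251). The proline carrier genes Slc6a20a and Slc6a20b moved apart, at 0.47 ± 0.16 (adjusted p = 0.0319, and 0.31, adjusted p = 0.297, against vehicle replicates 3 to 5) and -0.20 ± 0.07 (adjusted p = 0.0308). They are close copies, so reads shared by both can be lost or misplaced, and the call of Slc6a20b ended without replicate 1, 4 or 5 at 30 µg/kg (0.0711, 0.133 and 0.115) or vehicle replicate 4 or 5 (0.067 and 0.069). Exons on the other strand cover 21.1% of those of Slc6a20b, and 9.57% of those of Slc13a5.

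Of the 25 members called at 30 µg/kg that the naming rule covers, 6 were called under each of the 18 alternatives run: Slc13a5, Slc2a6, Slc43a1, Slc43a3, Slc5a9 and Slc7a12. The fit to the 10 libraries of the 2 groups ended most of the 25 calls. Among these were Slc5a8 (adjusted p by edgeR = 0.0701), Slc36a1 (0.0724), Slc6a6 (0.0943), Slc13a1 (0.117), Slc7a7 (0.128), Slc38a3 (0.159) and Slc7a9 (0.206). Besides this and the losses given above, the sense column ended the calls of Slc1a4 (adjusted p by edgeR = 0.0574) and Slc6a20b (0.0519). Testing without a filter on low counts ended those of Slc7a13 (0.0581), Slc1a4 (0.0585), Slc1a1 (0.058), Slc6a20b (0.0726) and Slc16a10 (0.0972). With library sizes alone those of Slc1a1 (0.06), Slc6a13 (0.0603) and Slc6a20b (0.0744) were lost, and Slc13a3 was called (0.0281).

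Below 30 µg/kg few members were called, and all of these were higher than vehicle. From 0.03 to 1 µg/kg 0 of 90 members were called, where 0%, 0%, 0.00577% and 0.513% of all genes were. The counts at an unadjusted p under 0.05 were 14, 16, 8 and 8 members (15.6%, 17.8%, 8.89% and 8.89%) beside 5.67%, 5.53%, 5.23% and 7.10% of all genes. Without vehicle replicates 1 and 2 these counts were 1, 1, 4 and 4 of 93 members beside 2.59%, 2.26%, 3.10% and 4.54% of all genes, and 0 members were called, where 0%, 0%, 0.00555% and 0.311% of all genes were. DESeq2 also called 0 at these doses. At 3 µg/kg 2 were called, Slc2a6 and Slc16a3 (2.22% of members beside 1.09% of all genes, 1.03% higher). Without vehicle replicates 1 and 2 the count at 3 µg/kg was 0 (all genes 0.600%), and 7 of 93 had an unadjusted p under 0.05 (all genes 5.62%). At 10 µg/kg 5 were called (5.56% beside 4.82%, 3.82% higher): Slc2a6, Slc16a3, Slc38a3, Slc43a3 and Slc7a12. Leaving those vehicle libraries out, 3 were called (all genes 2.86%), Slc2a6, Slc43a3 and Slc7a12.

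Slc2a6, a glucose carrier of lysosomes, measured 0.403, 0.507, 0.561, 0.460 and 0.340 CPM in the vehicle libraries, 0.388, 0, 0.993, 0.481 and 0.513 CPM at 0.03 µg/kg and 0.356, 0.181, 0.226, 0.185 and 0.358 CPM at 0.1 µg/kg. At 0.3 µg/kg it measured 1.24, 1.36, 1.53, 1.67 and 0.183 CPM and at 1 µg/kg 0.541, 2.03, 0.313, 1.45 and 1.12 CPM. These 2 doses were mixed, with 4 of 5 and 3 of 5 libraries above all of vehicle. At 3 µg/kg the values were 2.64, 2.16, 1.63, 2.21 and 2.06 CPM, at 10 µg/kg 2.99, 1.58, 2.49, 2.82 and 2.26 CPM and at 30 µg/kg 1.87, 3.22, 3.32, 0.954 and 2.10 CPM, and all 15 libraries exceeded all 5 of vehicle. The log2 fold changes at 3, 10 and 30 µg/kg were 2.21 ± 0.48, 2.39 ± 0.47 and 2.31 ± 0.48 (adjusted p by edgeR = 0.00542, 0.000535 and 0.000432). At these low counts the call at 3 µg/kg was lost with the sense-strand column (log2 1.51, adjusted p = 0.353) and without vehicle replicates 1 and 2 (2.21, adjusted p = 0.0649).

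Slc16a3, the lactate exporter of glycolytic cells, measured 0.519, 0.507, 1.47, 0.394 and 0.850 CPM in the vehicle libraries, 1.74, 1.58, 2.93, 2.01 and 2.24 CPM at 3 µg/kg, 0.965, 1.97, 2.55, 1.57 and 2.01 CPM at 10 µg/kg and 3.41, 1.24, 1.49, 1.18 and 1.68 CPM at 30 µg/kg. All libraries at 3 µg/kg lay above vehicle, and at the higher doses some lay below vehicle replicate 3. Without a call, Slc16a3 measured 1.21, 1.09, 1.19, 0.961 and 1.59 CPM at 0.03 µg/kg and 2.02, 1.40, 1.87, 0.616 and 0.896 CPM at 0.1 µg/kg. At 0.3 µg/kg it measured 0.866, 1.93, 1.24, 1.24 and 2.66 CPM and at 1 µg/kg 0.836, 0.985, 2.01, 0.968 and 1.49 CPM. Each of these lower doses had libraries above and below vehicle replicate 3. The log2 fold changes of Slc16a3 at 3, 10 and 30 µg/kg were 1.45 ± 0.38, 1.24 ± 0.38 and 1.23 ± 0.38 (adjusted p by edgeR = 0.0372, 0.043 and 0.0181). The calls at 3 and 10 µg/kg were lost on leaving out most single libraries, replicates 3, 4 and 5 at 3 µg/kg, replicates 2 to 5 at 10 µg/kg and vehicle replicates 1, 2, 4 and 5, with adjusted p up to 0.15. The call at 30 µg/kg was lost without replicate 1 at that dose (0.109) or vehicle replicate 1, 2 or 4 (0.0515, 0.0551 and 0.061). Against vehicle replicates 3 to 5 the values at 3, 10 and 30 µg/kg were 1.17, 0.96 and 0.95, none of which passed (adjusted p = 0.493, 0.326 and 0.158). Macrophage markers, 4 genes, summed to 27.7 to 38.0 CPM in vehicle, 47.3 to 67.0 at 3 µg/kg, 63.3 to 86.0 at 10 µg/kg and 66.4 to 99.5 CPM at 30 µg/kg, and all 4 rose at each of these doses. The part of these cells in the Slc16a3 and Slc2a6 values was not tested.

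Slc43a3, a carrier of purine bases, measured 23.6, 20.7, 13.3, 19.9 and 22.4 CPM in the vehicle libraries, 22.0, 21.7, 25.8, 20.8 and 22.3 CPM at 3 µg/kg, 34.1, 47.1, 32.1, 32.5 and 33.0 CPM at 10 µg/kg and 30.4, 36.2, 52.3, 45.4 and 38.6 CPM at 30 µg/kg. Every library at 10 and 30 µg/kg lay above every vehicle library, and those at 3 µg/kg overlapped vehicle. The log2 fold changes at 10 and 30 µg/kg were 0.84 ± 0.14 and 1.02 ± 0.14 (adjusted p by edgeR = 3.66e-05 and 7.24e-07). Slc7a12 measured 9.93, 22.0, 11.4, 10.7 and 5.79 CPM at 1 µg/kg, 11.9, 21.4, 5.02, 5.36 and 9.16 CPM at 3 µg/kg and 21.8, 34.6, 23.1, 16.9 and 20.2 CPM at 10 µg/kg. All 5 libraries at 10 µg/kg exceeded vehicle, with a log2 fold change of 2.10 ± 0.44 (adjusted p by edgeR = 0.00208). Slc38a3 measured 35.5, 65.6, 58.3, 59.0 and 44.9 CPM at 10 µg/kg, above all of vehicle (log2 1.29 ± 0.29, adjusted p by edgeR = 0.00433). Against vehicle replicates 3 to 5 this was 0.83 ± 0.27 (adjusted p = 0.0998). Slc38a3 was also high at 0.1 µg/kg, where no member was called. There replicate 2 was lowest at 31.7 CPM, and the next library, at 42.4 CPM, already lay above every vehicle library.

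**Figure D5:**
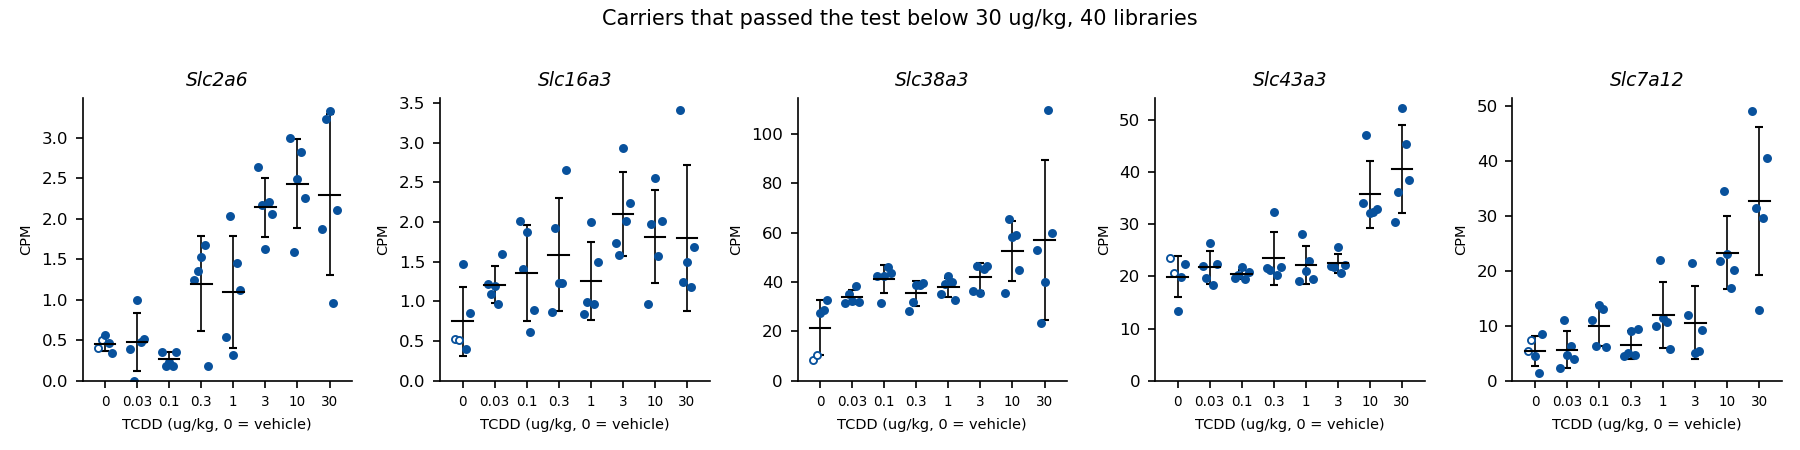
CPM (y axis) of the 5 carriers called below 30 µg/kg in each of 40 libraries by TCDD dose in µg/kg, with the group mean and SD (n = 5). Open points are vehicle replicates 1 and 2. Slc43a3 and Slc7a12 libraries at 10 and 30 µg/kg all lie above vehicle, and for Slc38a3 the open points at 8.30 and 10.5 CPM lie far below the other vehicle points.

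The step from 10 to 30 µg/kg was tested as its own contrast within the fit to all 40 libraries. Its fold change leaves out the vehicle mean, but the vehicle libraries still entered the filter, the scaling and the estimate of spread. The step called 12 members (13.3%, beside 2.70% of all genes), 7 higher and 5 lower (all genes 1.19% and 1.52%). Slc13a1 (1.04 ± 0.22, adjusted p by edgeR = 0.00588), Slc7a7 (0.57 ± 0.16, 0.0419), Slc7a9 (0.48 ± 0.12, 0.0164), Slc3a2 (0.46 ± 0.11, 0.015), Slc16a10, Slc2a9 and Slc43a2 were higher at 30 µg/kg. Slc13a5 (-2.15 ± 0.49, 0.00813), Slc7a13 (-1.51 ± 0.42, 0.0436), Slc5a8 (-0.61 ± 0.16, 0.0303), Slc13a2 and Slc1a1 were lower. For Slc7a13 the values at 10 µg/kg were 674, 681, 755, 539 and 716 CPM, within the range of vehicle replicates 3 to 5 or below it, and replicate 1 at 30 µg/kg overlapped them. Slc2a6, Slc16a3 and Slc43a3, called at 10 µg/kg, had steps of -0.09 ± 0.42, -0.01 ± 0.36 and 0.18 ± 0.14 that did not pass (adjusted p = 0.963, 0.998 and 0.611). The count rests on few libraries: it was 1 without replicate 3 and 7 without replicate 4 at 30 µg/kg, 3, 7 and 6 without replicates 1, 2 and 3 at 10 µg/kg, and 22 without replicate 1 at 30 µg/kg. Shares of all genes called in these fits are not given here, so a change particular to the members cannot be told from one over all genes.

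A trend over dose rank, from 0 for vehicle to 7 for 30 µg/kg, called 22 members (24.4%, beside 19.8% of all genes), 11 rising and 11 falling (all genes 11.0% and 8.84%). The lowest p-values among rising members were those of Slc2a6 (log2 0.42 ± 0.06 a dose step, adjusted p by edgeR = 1.39e-07), Slc7a12 (0.36 ± 0.05, 4.16e-07), Slc43a3 (0.14 ± 0.02, 6.06e-07), Slc38a3 (0.15 ± 0.03, 0.000463) and Slc6a6 (0.07 ± 0.02, 0.00142). Among falling members, low p-values were those of Slc5a9 (-0.04 ± 0.01, 0.000673), Slc6a20b (-0.03 ± 0.01, 0.00218), Slc6a13 (-0.04 ± 0.01, 0.0124) and Slc6a7, a proline carrier at 0.671 ± 0.304 CPM (SD, n = 5) in vehicle (-0.25 ± 0.07, 0.0129). Slc7a13 and Slc13a5, among the largest falls at 30 µg/kg, had no called trend (0.286 and 0.121). Without the 30 µg/kg group the trend called 9 members, with Slc6a13 (-0.01, adjusted p = 0.653), Slc6a6 (0.03, 0.0659), Slc5a9 (-0.03, 0.0656) and Slc6a7 (-0.23, 0.103) not among them, and without vehicle replicates 1 and 2 it called 35 (all genes 21.3%), of which 19 were also called with all libraries. The share of all genes called without the 30 µg/kg group is not given here.

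Of 24 genes that serve these carriers, 4 rose and 7 fell at 30 µg/kg, where 8.39% of all genes rose and 7.55% fell. Cltrn, which brings Slc6a19 and Slc6a18 to the membrane, fell by 0.59 ± 0.14 on the log2 scale (SE; adjusted p by edgeR = 0.00269), and the scaffolds Pdzk1 and Slc9a3r1 fell by 0.35 ± 0.08 (adjusted p = 0.0018) and 0.33 ± 0.07 (adjusted p = 0.000891). Khk, the fructose kinase, fell by 0.47 ± 0.08 (adjusted p = 1.1e-05), and Fxyd2, Hnf4a and Ldhb were lower too. The risers were Emb, a chaperone of monocarboxylate carriers (0.37 ± 0.11, adjusted p = 0.0133), the kinase Sgk1 (0.87 ± 0.30, 0.0398), Pck1 of glucose synthesis (0.66 ± 0.23, 0.0453) and Glud1 of glutamate breakdown (0.21 ± 0.07, 0.0462). The monocarboxylate carrier chaperone Bsg (-0.03 ± 0.07, adjusted p = 0.857) and Ahr itself (0.00 ± 0.15, adjusted p = 1) did not pass. Against vehicle replicates 3 to 5, 2 rose and 5 fell: Pdzk1 (-0.26, adjusted p = 0.0547), Sgk1 (0.95, 0.0838), Pck1 (0.62, 0.155), Hnf4a (-0.18, 0.182) and Ldhb (-0.13, 0.235) were no longer called. At 10 µg/kg Khk alone of the 24 was called (adjusted p = 0.0136).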

How the data were processed

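Members and gene lists were chosen with earlier results of these data known. The authors deposited read counts per gene for 40 libraries, and whole numbers in the unstranded column were used, since the stranded columns held 50.4 to 51.0% sense reads. The submitters' processing notes name FastQC 0.11.7, Trimmomatic 0.39, STAR 2.7.3a and DESeq2. They list the builds GRCm39 and mm10 without a role, so the build behind the counts is not given in the sources used here, and coordinates are given only for RefSeq promoter windows. GENCODE M21 named 52083 of 55359 identifiers, and the 3276 without a name held 0.663% of gene counts. Reads in no gene (unmapped 1.41 to 2.66%, several places 6.98 to 9.70%, no feature 5.28 to 7.27%, ambiguous 5.40 to 5.98%) were left out. In R 4.3.3, edgeR 4.0.16 kept 17345 genes with filterByExpr, scaled them by TMM (0.966 to 1.09) and fitted 8 groups with the robust quasi-likelihood test, adjusting p over all genes. The biological coefficient of variation was 17.1%. CPM values use TMM library sizes, fold changes a prior count of 0.125, and ratios a pseudocount of 1 count. Each SE is the fold change divided by the root of its F value. The fit was tested on simulated data.

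Alternatives were the sense column, DESeq2 1.42.0 for the test or for its size factors, library sizes alone, no filter, at least 1 CPM in 5 libraries, the 10 libraries of 2 groups, a pseudocount of 10, the trend without 30 µg/kg, each library left out and, chosen after seeing the data, vehicle replicates 3 to 5 alone. The text names 25 fixed carriers, the 10 largest rises and falls among calls at 30 µg/kg, members called below it and the 5 lowest trend p-values in each direction. Slc3a2, Slc6a20a, Slc16a1, Slc43a2 and Slc6a8 lie outside this rule and were named after their values were seen. Replicates were numbered in order of deposition. Labels give 1 mouse a sample, counts carry no molecular identifiers, and no 2 libraries were pooled. Some genes that enter the counts are not reported here by name.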

Additional observations from a re-analysis of the deposited data

Results flagged for a closer look

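For the 4 ratios and the members that the naming rule covers and the text reports, Dixon's criterion (an end value whose gap to its neighbour exceeds 0.71 of the range) was applied to the 5 libraries of every group. Of 320 groups looked at, 15 stood out, and chance picks about 1 in 20 groups, which is 16. The library of replicate 4 at 1 µg/kg, 1 of the 2 with adrenal markers, held 3: it was low for Slc5a12 (128 CPM, next 222), Slc5a8 (209 CPM, next 299.8) and Slc7a13 (608 CPM, next 768). The part of adrenal tissue in these values was not tested. Low values also stood out for Slc5a8 in replicate 1 at 3 µg/kg (223 CPM, next 274), Slc38a3 in replicate 2 at 0.1 µg/kg (31.7 CPM, next 42.4), Slc6a15 in replicate 3 at 1 µg/kg (42.4 CPM, next 50.4) and Slc7a8 in replicate 1 at 0.1 µg/kg (208 CPM, next 270.0).

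High values stood out for Slc6a15 in vehicle replicate 3 (68.8 CPM, next 35.7), the library without which its call at 30 µg/kg was lost, and for Slc16a3 in replicate 1 at 30 µg/kg (3.41 CPM, next 1.68). Slc43a3 was high in replicate 3 at 0.3 µg/kg (32.4 CPM, next 21.8) and replicate 2 at 10 µg/kg (47.1 CPM, next 34.1). Slc6a12 was high in replicate 5 at 30 µg/kg (12.6 CPM, next 5.0), and Slc13a3 in replicate 4 at 0.3 µg/kg (789 CPM, next 714). Of the log2 ratios, Slc5a1 to Slc5a2 stood out in replicate 2 at 10 µg/kg (-1.79, next -2.14) and Slc5a8 to Slc5a12 in replicate 3 at 10 µg/kg (0.32, next -0.17).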

How the results depend on the processing

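No paired analysis was possible because the labels give no replicate numbers. Without vehicle replicates 1 and 2 (chosen after seeing the data), members called numbered 0 at 3 µg/kg (2 with all libraries), 3 at 10 µg/kg (5) and 35 for the trend (22). The fit to the 10 libraries of 2 groups called 1 at 3 µg/kg and 7 at 30 µg/kg (27), and no filter called 1 at 3 µg/kg and 6 for 30 against 10 µg/kg (12). The sense column called 0 at 3 µg/kg, and the trend without 30 µg/kg called 9. The causes were not tested. Leaving out each library in turn gave 1 to 2 members at 3 µg/kg, 4 to 6 at 10 µg/kg, 18 to 33 at 30 µg/kg, 1 to 22 for 30 against 10 µg/kg and 16 to 32 for the trend. Shares of all genes called are not given for these fits, for 10 libraries at 3 µg/kg or for no filter. Nor are they given for the sense column or the trend without 30 µg/kg. Slc2a1, Slc7a8 and Slc6a12, not called at 30 µg/kg, changed sign. Slc2a1 (0.02) was -0.07 with the sense column, -0.13 without vehicle replicates 1 and 2, and -0.15 to 0.14 with 1 library left out. Slc7a8 (-0.07) was 0.27 without those vehicle libraries and -0.21 to 0.05 (0.053, without replicate 4 at 30 µg/kg) with 1 left out, and Slc6a12 (-0.12) was -0.68 to 0.16 with 1 left out. Of 1315 values of 55 named results, 1188 kept direction and call, 98 lost the call, 15 gained it and 14 changed sign. At 1 CPM a carrier rests on 15.3 to 25.6 counts, which limits what can be seen for Slc2a6, Slc16a3, Slc43a1 and Slc13a5.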

Other observations

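Counts by family are small, no family was tested as a set, and 8.39% of all genes were called higher and 7.55% lower at 30 µg/kg. At that dose, among 11 carriers of family Slc2 that passed the count filter, 2 were called higher (Slc2a6 and Slc2a9) and 0 lower. Of 11 in family Slc5, the sodium-driven sugar and monocarboxylate carriers, 0 were higher and 3 lower (Slc5a2, Slc5a8 and Slc5a9). Without vehicle replicates 1 and 2 Slc5a2 was no longer called, and family Slc5 had 0 higher and 2 lower of 12 (all genes 6.38% and 6.20%). Family Slc7 had 3 higher (Slc7a12, Slc7a7 and Slc7a9) and 1 lower (Slc7a13) of 13, and family Slc6 had 3 higher and 3 lower of 14. Of the 3 members of family Slc43, Slc43a1 and Slc43a3 were higher, and Slc43a2, which exports neutral amino acids, was called against vehicle replicates 3 to 5 and not against all 5 (log2 0.41 ± 0.09, edgeR adjusted p = 0.000792, beside 0.21 ± 0.09 and 0.101 with all 5).

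Fat cell markers (4 genes) summed to 29.9 to 77.7 CPM in vehicle and 104.5 to 226 CPM at 30 µg/kg, with Ucp1 called higher and Adipoq, Plin1 and Cidea not called.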
